A study of Mus musculus with 9 samples.

Results

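Type I interferon response genes were examined in mouse regulatory T cells (Tregs) of inflamed joints and lymph nodes. They were chosen by symbol: 44 genes that carry or answer the type I interferon signal, all 44 found among the 23420 genes of the normalized expression table. A mean of 10 normalized reads over all libraries was required for testing, which 42 of the 44 members and 11357 of all genes reached. Oas1g (0 to 2.62 normalized reads) and Ifi204 (0 to 9.39) stayed below it, and no comparison is given for either gene.

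The 9 libraries came from mice whose genotype is labelled WT, with a Foxp3 reporter whose YFP signal was used to sort the Tregs. Of these, 3 held synovial Tregs of mice with collagen-induced arthritis (an inflammatory joint disease raised by immunization with collagen), 3 held Tregs of the lymph nodes draining those joints, and 3 held node Tregs of control mice labelled as untreated. By the sample titles, synovial and arthritic node libraries of the same number came from the same mouse, whereas control nodes came from other mice. The labels used here give neither strain nor age, and sorted cells were measured in bulk, so a smaller share of cells expressing a gene and less RNA per cell cannot be told apart. Each library held 11300406 to 12855435 reads assigned to genes. The cells carried their defining genes in every library: the sum over Cd3e, Cd4, Foxp3, Il2ra, Ctla4 and Ikzf2 was 97526 to 102147 normalized reads in synovium and 39877 to 48824 in the nodes. Foxp3 was a small part of that sum, at 413 to 538 in synovium and 170 to 404 in the nodes. The higher synovial sum came mainly from Il2ra, Ctla4 and Ikzf2. Cd3e averaged 11010 in synovium, 11035 in arthritic and 10873 in control nodes.

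Type I interferons signal through a receptor of the chains Ifnar1 and Ifnar2, whose kinases Jak1 and Tyk2 phosphorylate Stat2 among other proteins. Stat2 and Irf9 are parts of the ISGF3 complex, which binds the interferon-stimulated response element (ISRE) in the promoters of antiviral genes. In T cells the response restrains viral replication and alters survival and proliferation, and Usp18 and the Socs proteins damp it. In the windows from 250 bases before to 50 bases after the start of a gene (RefSeq, GRCm38.p6), present for 33 of the 44 members, the ISRE core, GAAA with any 2 bases between it and a second GAAA, was searched on both strands. It was found in 15 of the 33 (45.5%), against 1131 of 32851 promoters in all (3.44%). The gamma-activated site, TTC and GAA with any 3 bases between them, reads the same on both strands and was found in 8 of the 33 (24.2%) against 8.30% of all promoters. A member counted if any of its windows held a match, and a gene can have more than 1 window, as Trim30a did. The shares of all promoters count single windows, so the units of the shares differ. A match of letters is a description and not a measured binding site. The stretches below show in capitals the core nearest the start of the gene for 4 members that were lower in synovial than in arthritic node Tregs (Ifit3, Oas3, Bst2 and Stat2) and for 4 whose difference did not pass the test (Isg15, Ifit1, Rsad2 and Oas1a), printed 5′ to 3′ along the gene.
Ifit3: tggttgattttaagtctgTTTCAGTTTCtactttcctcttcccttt
Oas3: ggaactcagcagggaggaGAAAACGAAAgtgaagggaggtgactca
Bst2: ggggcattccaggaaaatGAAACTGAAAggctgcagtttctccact
Stat2: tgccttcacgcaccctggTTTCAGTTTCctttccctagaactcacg
Isg15: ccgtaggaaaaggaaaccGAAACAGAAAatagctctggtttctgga
Ifit1: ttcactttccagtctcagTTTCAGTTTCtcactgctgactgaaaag
Rsad2: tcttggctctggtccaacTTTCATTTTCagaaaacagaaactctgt
Oas1a: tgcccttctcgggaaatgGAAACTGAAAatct
These stretches lie at chr19:34583389-34583434 (plus strand), chr5:120777707-120777752 (minus strand), chr8:71537569-71537614 (minus strand), chr10:128270258-128270303 (plus strand), chr4:156200857-156200902 (minus strand), chr19:34640786-34640831 (plus strand), chr12:26456545-26456590 (minus strand) and chr5:120907526-120907557 (minus strand). Ifit3 and Ifit1, both on chromosome 19, and Stat2 hold the same 10 letters in capitals, and Bst2 and Oas1a hold their reverse complement. Further cores begin in the lower case letters before the capitals: 2 in the stretch of Isg15, 1 in that of Bst2 and 1 in that of Oas1a.

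Synovial Tregs had lower levels of most interferon response genes than the node Tregs of the same arthritic mice. With limma on log2(normalized reads + 1) and a Benjamini-Hochberg adjusted p under 0.05 over all 11357 genes, 24 of the 42 tested members fell, 1 rose and 17 did not pass. Over all genes, 15.9% were called lower and 17.9% higher. The median difference of the members was -0.80 on the log2 scale, against -7.25e-05 over all genes, and 38 of the 42 differences were negative. In 26 members all 3 synovial libraries lay below all 3 arthritic node libraries, and in 1 they lay above. Over all genes the corresponding shares were 23% and 25.2%. With only the 2 groups compared in the fit, 26 members were lower, Samd9l (limma adjusted p = 0.0103) and Cmpk2 (0.0457) being added. With the mouse number as a block in that fit, as the titles pair these libraries, 27 members were lower and 1 higher. The block added Ifit1 (adjusted p = 0.00366) and kept Samd9l (0.00719) and Cmpk2 (0.0194). Leaving out arthritic node library 2 left 17 members called lower, the fewest of any library left out. Counts of all genes in these alternative fits are not given here, so such changes cannot be read as particular to the members.

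**Figure D1:**
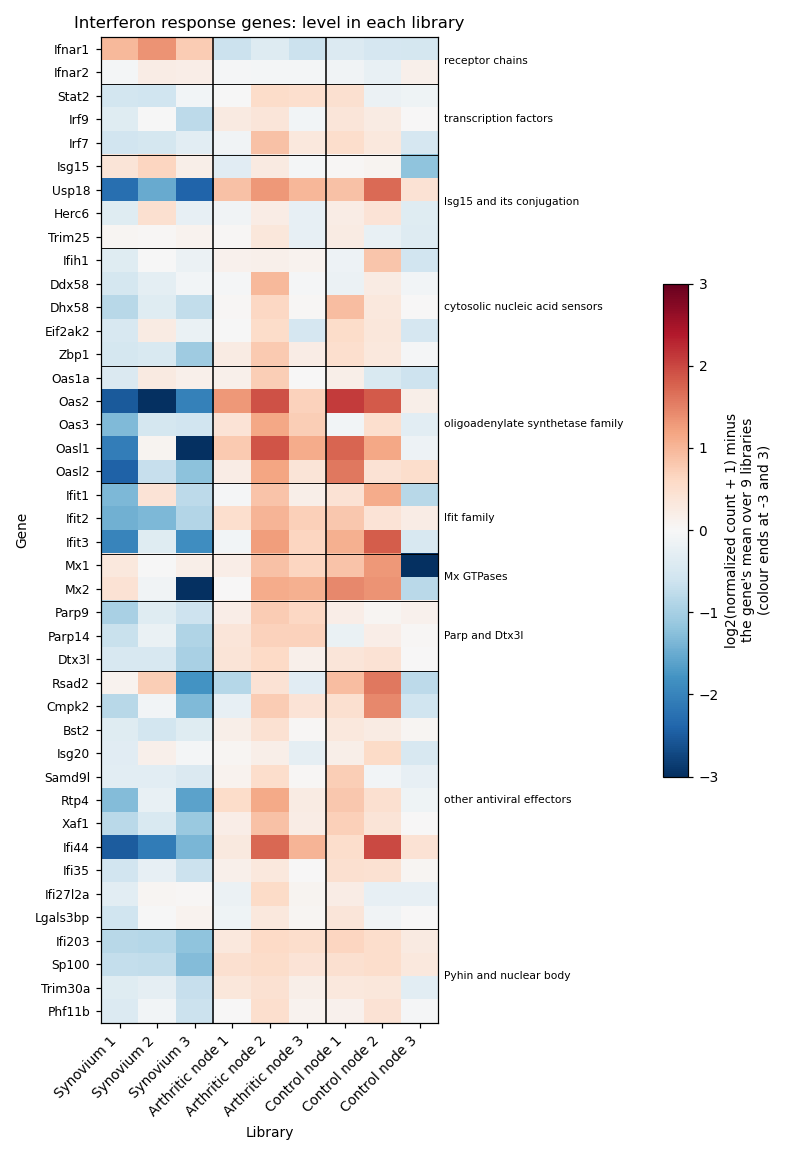
Level of each of the 42 tested members (rows, ordered by role) in each of the 9 libraries (columns), as log2(normalized reads + 1) minus the mean of the gene over all libraries. Colour runs from -3 (blue) to 3 (red), and black vertical lines separate the groups. Most rows are bluer in the 3 synovial columns than in the 6 node columns, Ifnar1 shows the opposite, and values past either end, such as Mx1 in control node library 3, take the end colour.

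Of the receptor chains, Ifnar1 rose in synovium and the difference of Ifnar2 did not pass. Ifnar1, the chain that recruits Tyk2 (chr16:91485238-91507441, GRCm38), stood at 9957, 13009 and 8662 normalized reads in synovial libraries 1 to 3, at 3259, 3851 and 3255 in arthritic node libraries 1 to 3 and at 3836, 3580.3 and 3513 in control node libraries 1 to 3. Every synovial library exceeded every node library, and the level rose by 1.59 ± 0.14 on the log2 scale (standard error; limma adjusted p = 3.6e-06), 3.02-fold. Ifnar2, the partner chain that binds Jak1 (chr16:91372783-91405589), stood at 887, 1091 and 1066 in synovium, 900.1, 889 and 885 in the arthritic and 868, 789.9 and 1028 in the control nodes. Its groups overlapped, and the difference of 0.18 ± 0.15 between synovium and arthritic nodes did not pass (adjusted p = 0.371, 95% interval -0.14 to 0.50). Per kilobase of annotated exon, the ratio of Ifnar1 to Ifnar2 was 4.55 to 6.68 in the synovial libraries and 1.92 to 2.54 in the node libraries. Ifnar2 shares 315 exon bases on the same strand with the annotated gene Gm21970, so how reads were divided between them bears on this ratio. Both genes lie in a cluster of cytokine receptor genes on chromosome 16.

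Of the transcription factors, all 3 members fell relative to arthritic nodes by less than 1 on the log2 scale. Stat2, a part of ISGF3 that the receptor kinases phosphorylate, stood at 616, 593 and 847 in synovial, 894, 1308 and 1276 in arthritic node and 1247, 788 and 818 in control node libraries. It fell by 0.76 ± 0.22 (limma adjusted p = 0.0189), and synovium and arthritic nodes did not overlap. Irf9, the DNA-binding part of ISGF3, stood at 2403, 3071 and 1790.1 (synovium), 3725, 4013 and 2939 (arthritic nodes) and 4002, 3685 and 3131 (control nodes). It fell by 0.58 ± 0.18 (limma adjusted p = 0.0294), although synovial library 2 lay above arthritic node library 3. Irf7, which drives the amplifying wave of interferon genes, stood at 847, 875 and 1009 in synovial, 1161, 2297 and 1575 in arthritic node and 1811, 1554 and 889 in control node libraries, and all 3 synovial libraries lay below the arthritic node libraries. It fell by 0.83 ± 0.27 (limma adjusted p = 0.0315). Each of these calls was lost when certain libraries were left out: the adjusted p became 0.0619 to 0.0775 for Stat2 (synovial library 1 or 2, arthritic node library 2 or 3), 0.0664 to 0.113 for Irf9 (synovial 1 or 3, arthritic node 1 or 2) and 0.0548 to 0.14 for Irf7 (any synovial library, arthritic node 2 or 3). Each was also lost with all libraries in the fit when limma was run without its mean-variance trend.

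Among the 4 members of the Isg15 system, Usp18 stood apart. Usp18, which removes Isg15 from proteins and blocks signalling at Ifnar2 (chr6:121245906-121270917), stood at 244, 409.8 and 222 normalized reads in synovium, 2173, 2909 and 2354 in arthritic nodes and 2184, 3846 and 1584 in control nodes. The highest synovial library lay far below the lowest node library, and the gene was 8.72-fold lower in synovium than in arthritic nodes and 8.4-fold lower than in control nodes (limma adjusted p = 6.41e-06 for the latter). Isg15, the ubiquitin-like modifier itself, stood at 848, 1024 and 735 in synovium, at 512, 791 and 620.2 in arthritic and at 669, 694 and 281 in control nodes. Its synovial libraries overlapped the arthritic nodes and lay above every control node library, where the difference of 0.76 ± 0.31 had an adjusted p = 0.0666. Without control node library 1 or 2 that difference passed (adjusted p = 0.0451 and 0.0372). Herc6, the ligase that attaches Isg15 in mice, and Trim25, a ligase that acts on Rig-I, did not pass and spanned 641 to 1162 and 528 to 867 normalized reads over the 9 libraries.

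**Figure D2:**
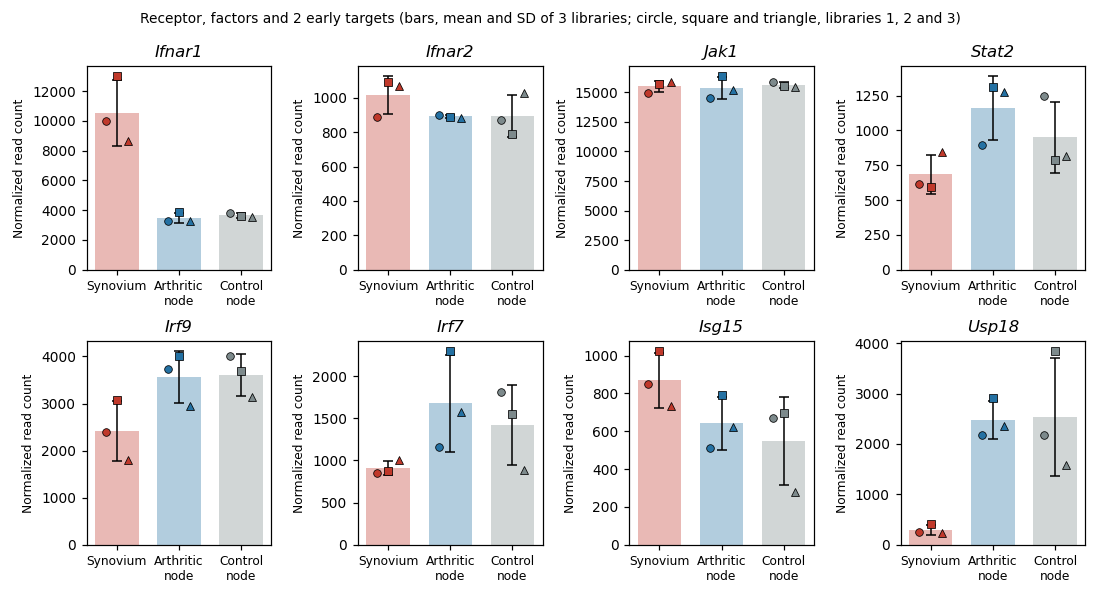
Normalized reads (y axes, starting at 0) of Ifnar1, Ifnar2, Stat2, Irf9, Irf7, Isg15 and Usp18, and of Jak1 from the signalling list, in synovium, arthritic node and control node. Bars are means, error bars the SD of 3 libraries, and circles, squares and triangles libraries 1, 2 and 3. Ifnar1 is above all node libraries in synovium, Usp18 is below all of them, and Ifnar2 and Jak1 overlap between groups.

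Of the 5 cytosolic sensors of nucleic acid, 2 fell. Zbp1, which binds Z-form nucleic acid, stood at 1154, 1200.0 and 793 in synovium, 1973, 2851 and 1927 in nodes of arthritic mice and 2346, 2066 and 1621 in those of controls. The synovial libraries lay below all 6 node libraries, and it fell by 1.10 ± 0.20 (limma adjusted p = 0.00124). Dhx58, the regulator of the RNA helicase sensors also called Lgp2, stood at 137, 189 and 147 (synovium), 249.6, 376 and 249.8 (arthritic nodes) and 469, 303 and 247 (control nodes), again without overlap. It fell by 0.87 ± 0.30 (limma adjusted p = 0.0384), but the adjusted p rose to 0.055 to 0.152 without synovial library 1 or 3 or any 1 arthritic node library. Ifih1 (Mda5), Ddx58 (Rig-I) and Eif2ak2 (the kinase PKR) did not pass. Ddx58 averaged 874 ± 141 (SD, n = 3) against 1396 ± 613 in arthritic nodes, and all 3 of its synovial libraries lay below (difference -0.60 ± 0.25, limma adjusted p = 0.0814). Ifih1 ranged from 589.8 to 1564 and Eif2ak2 from 526 to 1092 over the 9 libraries.

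The oligoadenylate synthetases make the second messenger that activates RNase L, and the related Oasl genes were grouped with them. In this family 4 of 5 tested members fell, among them Oas2 and Oasl1, the 2 members with the largest differences on the log2(normalized reads + 1) scale. By the ratio of group means Oasl1 (0.170) came after Ifi44 (0.113) and Usp18 (0.118), and in the authors' deposited table its log2 fold change was -2.58, against -3.17 and -3.11. Oas2 stood at 7.71, 3.52 and 11.2 in synovium, 123, 186 and 80.4 in the arthritic and 213, 179 and 55.7 in the control nodes, where 3 reads correspond to 2.61 to 3.52 normalized reads. Its synovial levels were thus a few reads, and it fell by 3.98 ± 0.63 (limma adjusted p = 0.000435). Oasl1, which limits translation of Irf7, stood at 11, 52.8 and 1.12 in synovial, 87, 187 and 109 in arthritic node and 168, 113 and 44.7 in control node libraries. It fell by 3.46 ± 0.96 (limma adjusted p = 0.0145), but synovial libraries 1 to 3 differed widely: without synovial library 3 the difference was -2.26, without library 2 it was -4.59, and without arthritic node library 2 the adjusted p was 0.0603. Oasl2 stood at 48.5, 164 and 112 in synovium, at 309.6, 608 and 347 in arthritic and at 791, 358 and 383 in control nodes, below every node library in synovium, and fell by 2.05 ± 0.45 (limma adjusted p = 0.00382). Oas3 stood at 54, 95.1 and 92.1 (synovium), 183, 309 and 229 (arthritic nodes) and 130.5, 197 and 110.5 (control nodes), also below every node library in synovium, and fell by 1.58 ± 0.37 (limma adjusted p = 0.00538). Oas1a did not pass and ranged from 322 to 818 over the 9 libraries. Oas2, Oas3 and Oas1a lie in a cluster on chromosome 5 (120730333 to 120907521). Reads of Oas1a and its near-identical neighbour Oas1g may have been split by the counting.

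The Ifit proteins bind foreign RNA and block its translation. Ifit2 stood at 227, 242 and 335 in synovial, 872, 1258 and 1023 in arthritic node and 1083, 831 and 725 in control node libraries, with a wide gap between synovial and node libraries. It fell by 1.97 ± 0.21 (limma adjusted p = 2.3e-05), 3.93-fold. Ifit3 stood at 141, 436 and 152 in synovial, 526, 1335 and 873 in arthritic node and 1161, 1954 and 398 in control node libraries, so that synovial library 2 lay above control node library 3. Relative to arthritic nodes it fell by 2.01 ± 0.56 (limma adjusted p = 0.0146), and the adjusted p was 0.0641 to 0.0686 without synovial library 1 or 3 or arthritic node library 2. Ifit1, the best-known member of the family, stood at 675, 2277 and 1005 in synovium, at 1672, 3122 and 1948 in arthritic and at 2339.6, 3716 and 959 in control nodes. Its synovial library 2 lay within the node range, and the difference of -0.91 ± 0.48 did not pass (adjusted p = 0.169). The 3 genes lie within chr19:34550694-34650009. The Mx GTPases, which trap viral nucleocapsids, were low throughout. Mx1 ranged from 55.2 to 139 normalized reads in 8 libraries and stood at 1.83 in control node library 3, which is 2 reads. Mx2 ranged from 0 to 29.8 in synovium and from 11.9 to 60.2 in the nodes, and neither gene passed. GENCODE vM21 labels Mx2 a polymorphic pseudogene, and the strain is not given, so its reads need not stand for a working protein.

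The ADP-ribosyltransferases Parp9 and Parp14 and their partner fell together on chromosome 16, where they lie in a stretch from 35832874 to 35972605. Parp9, which forms a complex with Dtx3l, stood at 715, 1101 and 921 in synovium, 1616, 2384 and 2182 in nodes of arthritic mice and 1614, 1469 and 1546 in those of controls. It fell by 1.18 ± 0.18 (limma adjusted p = 0.000301). Dtx3l, the ubiquitin ligase of that complex, stood at 619, 623 and 439 (synovium), 1125, 1315 and 966 (arthritic nodes) and 1111, 1176 and 876 (control nodes), and fell by 1.02 ± 0.19 (limma adjusted p = 0.00118). Parp14 stood at 634, 883 and 541 in synovial, 1309, 1629 and 1646 in arthritic node and 883, 1173 and 1039 in control node libraries, and fell by 1.18 ± 0.19 (limma adjusted p = 0.000481). In all 3 genes every synovial library lay below every node library, although Parp14 was nearly equal in synovial library 2 (882.99) and control node library 1 (883.23). Parp9 and Dtx3l share 458 exon bases on opposite strands in GENCODE vM21, and the strand setting of the counting is not given in the sources used here, so part of their reads may be common to both. In all, 15 of the 44 members share exon bases with another annotated gene, 7 of them on the same strand. These include Herc6 with Gm45193 (1269 bases), Rtp4 with Gm45338 (296) and Irf9 with Rnf31 (123) on the same strand and Usp18 with Gm44148 (124) on the other, and their counts carry the same doubt.

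Of 11 other antiviral effectors, 5 fell, and each of the 5 lay below all 6 node libraries in synovium. Ifi44 was the steepest, at 7.71, 10.6 and 18 in synovium, 59.1, 163 and 99.6 in the arthritic and 70.3, 193 and 65.7 in the control nodes. It fell by 3.00 ± 0.60 (limma adjusted p = 0.00215). Rtp4, a chaperone that also restrains viral replication, stood at 632, 1337 and 515 in synovium, at 2289, 3452 and 1855 in arthritic and at 2747, 2185 and 1425 in control nodes, and fell by 1.69 ± 0.34 (limma adjusted p = 0.00228). Xaf1, a promoter of apoptosis, stood at 468, 595 and 381 (synovium), 941, 1517 and 954 (arthritic nodes) and 1344, 1072 and 823 (control nodes), and fell by 1.23 ± 0.24 (limma adjusted p = 0.00187). Smaller steps were seen in Bst2 and Ifi35. Bst2 (tetherin, which holds virions at the cell surface) stood at 1084, 944 and 1079.9 in synovial, 1569, 1924 and 1419 in arthritic node and 1742, 1656 and 1461 in control node libraries, and fell by 0.65 ± 0.14 (limma adjusted p = 0.00364). Ifi35 stood at 1969, 2493 and 1869 in synovium, at 3255, 3626 and 2970.1 in arthritic and at 4094, 4046 and 3039 in control nodes, and fell by 0.64 ± 0.15 (limma adjusted p = 0.0053). Samd9l (2671 ± 126 in synovium, 4025 ± 753 in arthritic nodes) came close to the threshold (difference -0.58 ± 0.22, adjusted p = 0.0575), with all synovial libraries below all 6 node libraries. Cmpk2 (206 ± 90.9 and 419.9 ± 140.4) had a difference of -1.06 ± 0.47 (adjusted p = 0.102). The nearby Rsad2 (viperin) ranged from 48.3 to 513, Isg20 from 729.5 to 1497, Lgals3bp from 1285 to 2489 and Ifi27l2a from 3925 to 7287 over the 9 libraries, and none of these 4 passed.

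All 4 tested members of the Pyhin and nuclear group fell. Ifi203, a Pyhin protein of the family that senses DNA, stood at 1761, 1727 and 1346 in synovial, 3900.3, 4679 and 4476 in arthritic node and 4879.9, 4453 and 3743 in control node libraries, and fell by 1.44 ± 0.14 (limma adjusted p = 8.61e-06). Sp100, a component of nuclear bodies, stood at 4989, 4907 and 3308 (synovium), 11379, 12011 and 10902 (arthritic nodes) and 11530.2, 11902 and 10202 (control nodes), and fell by 1.40 ± 0.14 (limma adjusted p = 1.48e-05). In both genes the spread within each group was small beside the gap between synovium and nodes. Trim30a stood at 1346, 1448 and 1079.9 in synovial, 2209, 2379 and 1965 in arthritic node and 2184, 2208 and 1404 in control node libraries, and fell by 0.76 ± 0.18 (limma adjusted p = 0.00602). Phf11b stood at 1097, 1378 and 928 in synovium, at 1465, 2083 and 1583 in arthritic and at 1595, 1979.8 and 1425 in control nodes, and fell by 0.59 ± 0.18 (limma adjusted p = 0.0259). The call for Phf11b was lost without synovial library 1 or 3 or arthritic node library 2 (adjusted p = 0.0691 to 0.116). Trim30a belongs to a family of close paralogs, among which reads can be divided.

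**Figure D3:**
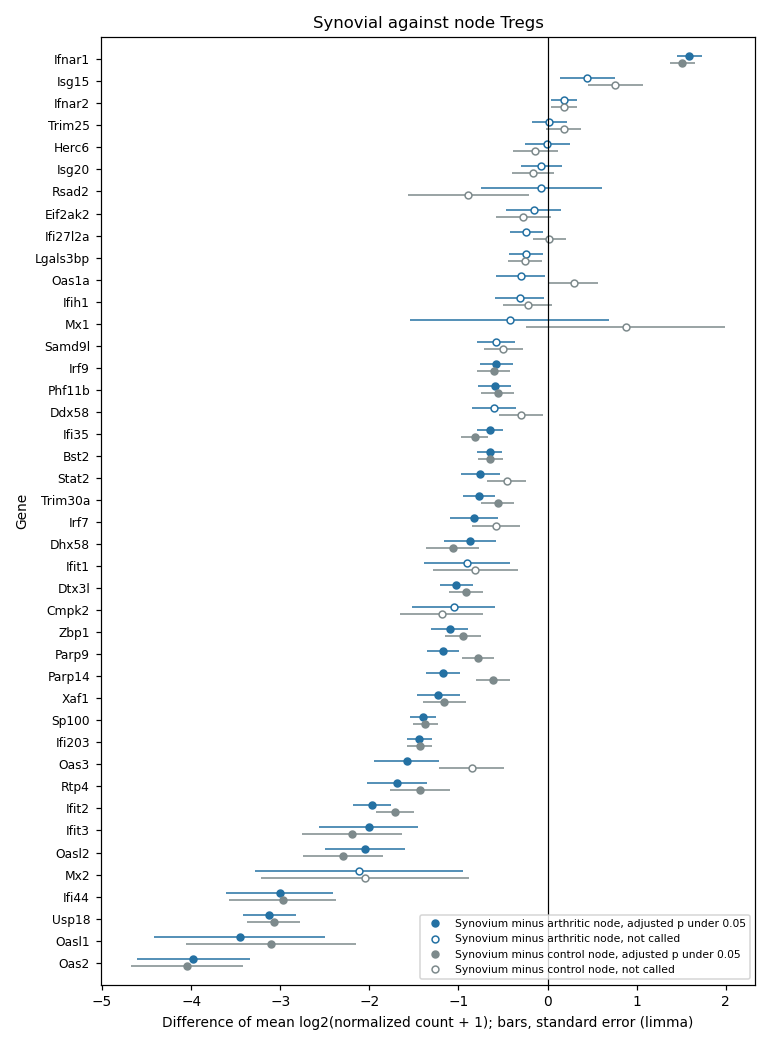
Difference of mean log2(normalized reads + 1) between synovium and arthritic node (blue) and between synovium and control node (grey) for the 42 tested members, with standard errors from limma as bars. Filled circles mark an adjusted p under 0.05. Both comparisons use the same 3 synovial libraries. Ifnar1 is the filled pair on the right, and Oas2, Oasl1, Usp18 and Ifi44 lie farthest to the left.

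Node Tregs of arthritic and control mice did not differ detectably in these genes. Limma called 0 of 42 members (0.335% of all genes were called higher and 0.00881% lower), and edgeR and DESeq2 on the recovered reads also called 0. An unadjusted p under 0.05 was reached by 3 members: Parp14 (0.57 ± 0.19, limma adjusted p = 0.357), Parp9 (0.40 ± 0.18, adjusted p = 0.54) and Oas1a (0.60 ± 0.27, adjusted p = 0.548). In Parp14 and Parp9 all 3 arthritic node libraries lay above all 3 control libraries, and these were the only 2 members without overlap (7.89% of all genes in that direction and 7.03% in the other). The median difference of the members was 0.07 and that of all genes 0.01. The standard errors ran from 0.14 to 1.17 with a median of 0.24, and for 30 of the 42 members the 95% interval lay within 2-fold in either direction. For the other 12 a difference of 2-fold lay within the interval.

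Against control nodes, synovial Tregs showed the pattern of the first comparison, with which this one shares the synovial libraries. Here 21 members fell, 1 rose and 20 did not pass, while 18.5% of all genes were lower and 21.6% higher, 40.1% in either direction. The median was -0.71, against 0.02 over all genes. Ifnar1 rose by 1.51 ± 0.14 (limma adjusted p = 4.28e-06), and the differences of members that fell included -3.07 for Usp18, -4.05 for Oas2, -2.97 for Ifi44 and -1.71 for Ifit2. The 21 members were all lower than arthritic nodes as well. Stat2 (-0.46, adjusted p = 0.117), Irf7 (-0.58, adjusted p = 0.105) and Oas3 (-0.85, adjusted p = 0.0821) passed only against arthritic nodes, and whether their 2 differences differ is the node comparison above, in which none passed. In 20 members all synovial libraries lay below all control libraries (23.8% of all genes), and in 2, Ifnar1 and Isg15, they lay above (26.2%). In 19 members every synovial library lay below all 6 node libraries, as it did in 2026 of the 11357 genes. The counts of 20 and 19 include Parp14, which was nearly equal in synovial library 2 and control node library 1. Without 1 library the calls of Dhx58 (adjusted p = 0.0566), Irf9 (0.0508 to 0.0846), Oasl1 (0.05 to 0.0767), Parp14 (0.0538 to 0.0865), Phf11b (0.0562 to 0.119) and Trim30a (0.0994 to 0.104) were lost. The libraries concerned were control node 1 for Dhx58, synovial 1 or 3 and control node 1 or 2 for Irf9, Oasl1 and Phf11b, synovial 1 or 3 and control node 2 or 3 for Parp14, and synovial 3 and control node 1 or 2 for Trim30a. Leaving out control node library 3 moved the difference of Ifit3 from -2.19 to -2.83 and that of Oas2 from -4.05 to -4.64. For Oasl1 the difference of -3.11 became -4.24 without synovial library 2 and -1.91 without synovial library 3.

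Within the groups, certain libraries held the highest or lowest level for most members. Arthritic node library 2 had the highest level of its group in 40 of 42 members (95.2%), all but Ifnar2 and Parp14, against 34.7% of all genes. Usp18 stood at 2909 there against 2173 and 2354 in the other arthritic node libraries, and Irf7 at 2297 against 1161 and 1575. Synovial library 2, from the same mouse, was the highest of its group in 29 of 42 (69%), against 35.6% of all genes. Mouse 2 was highest in both tissues in 27 members (64.3%), against 13.2% of all genes. With both libraries highest in most members, such a count follows from the separate orders and by itself shows no link between the tissues. Control node library 3 was the lowest of its group in 34 members (81%), against 34.2% of all genes. Ifit1 stood at 959 there against 2339.6 and 3716, and Isg15 at 281 against 669 and 694. These orders are descriptions of single libraries, and no test was made. Control node library 1 lay apart from the other libraries on the second principal component of all genes (83.5, against -41.4 to 18.8). It was the highest of its group in 23 members (54.8%, against 35.6% of all genes). It was the lowest in 2 (4.76%, against 35.6% of all genes).

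**Figure D4:**
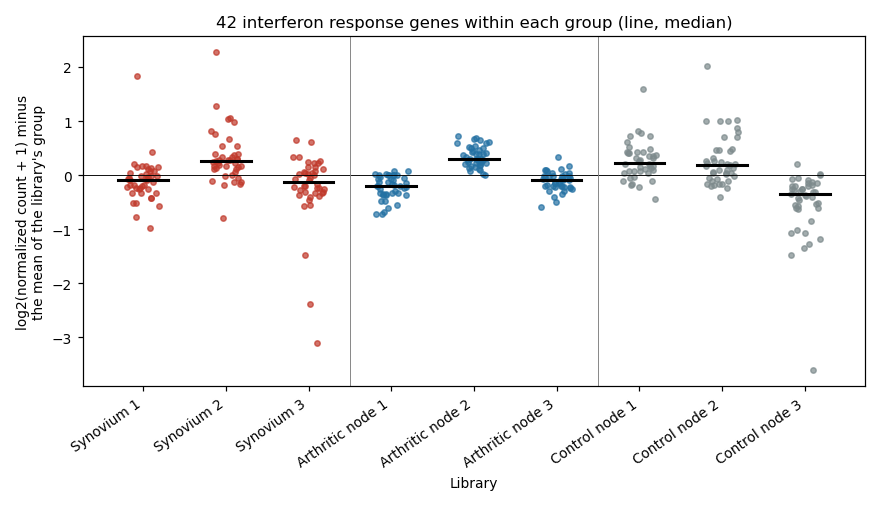
Deviation of each member from the mean of its own group in log2(normalized reads + 1), 1 point per gene, for each of the 9 libraries. Black lines are medians over the 42 members. The median is 0.30 in arthritic node library 2, 0.25 in synovial library 2 and -0.36 in control node library 3.

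On the scale of normalized reads per kilobase of exon, Ifi27l2a was the highest member in every group, at 10084 (synovium), 12097 (arthritic nodes) and 9995 (control nodes). Ifnar1 was next in synovium at 1775, a place that Ifi35 held in the nodes at 1901 and 2158. The lowest tested members in synovium were Oas2 (1.68), Ifi44 (1.97) and Mx2 (4.59). Summed over the 44 members, the share of all normalized reads was 0.323 to 0.412% in synovium, 0.588 to 0.763% in the arthritic and 0.521 to 0.690% in the control nodes, so the synovial range lay below the node ranges. Members with and without the ISRE core are given side by side, with no test: of 14 tested members with a core in the window 7 fell (median -0.63), and of 18 with a window and no core 10 fell and 1 rose (median -0.74). Usp18, Dhx58, Zbp1, Oas2, Mx1, Mx2, Parp9, Parp14, Rtp4, Ifi27l2a and Ifi204 had no window.

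The ligands were scarcely detected. Of 16 type I interferon genes in the table, 0 reached the mean of 10. Ifnb1 was at 0 in all 9 libraries, and Ifna1 (39.3 normalized reads), Ifna4 (15.7) and Ifnab (6.74) had reads only in synovial library 3. Of 20 tested genes of receptor signalling, 9 rose and 3 fell in synovium relative to arthritic nodes, so that the share lower was close to the 15.9% of all genes and the share higher above the 17.9%. The receptor kinase Jak1 had overlapping groups, at 14961, 15708 and 15852 (synovium), 14537, 16375 and 15164 (arthritic nodes) and 15877, 15495 and 15462 (control nodes) (adjusted p = 0.913). Under quantile scaling, which moved the median of all genes by -0.12 in this comparison, Jak1 was lower in synovium by a difference of -0.50 (limma adjusted p = 0.00033). Tyk2 ranged from 295 to 701 and Irf1 from 1639 to 2946 over the 9 libraries and did not pass. Other receptors and factors moved far more: the interferon gamma receptor chain Ifngr1 rose by 2.45, Stat3 by 2.43 and Irf5 by 2.84, and the phosphatase Ptpn6 fell by 2.82 (limma adjusted p = 5.77e-08, 2.75e-07, 4.6e-05 and 2.75e-07). Ptpn2, a phosphatase that acts on Jak1, rose by 0.73 (adjusted p = 0.000576). The others that rose were Irf8 (1.07), Socs3 (0.90), the receptor chain Il10rb (0.76), Pias4 (0.52) and the phosphatase Ptpn1 (0.43), and the others that fell were Irf3 (-0.44) and Irf2 (-0.31). Of these, 4 calls were lost without 1 library, with an adjusted p of up to 0.166 for Irf2, 0.364 for Ptpn1, 0.097 for Socs3 and 0.108 for Pias4 over all alternatives. The libraries were synovial 1 or 3, any arthritic node or control node 2 or 3 for Irf2, synovial 1 or 2 and arthritic node 1 or 2 for Ptpn1, synovial 3 and arthritic node 1 for Socs3, and synovial 1 or 2 and any arthritic node for Pias4. With only synovium and arthritic nodes fitted, Irf2 and Pias4 did not pass either, with or without the mouse as a block. Il10rb shares 569 exon bases on the same strand with Gm21970, so its counts carry the doubt given for Ifnar2. Socs1, another feedback inhibitor, fell relative to control nodes (-0.48, adjusted p = 0.018) and did not pass relative to arthritic nodes (-0.27); its call was lost without synovial library 2 or 3 or control node library 3. In the node comparison 1 gene of this list passed, the feedback inhibitor Socs3, which rose by 2.26 in arthritic nodes (adjusted p = 0.0118). That call was lost without arthritic node library 2 or 3, without the trend, with only the 2 node groups fitted and with the block (adjusted p = 0.0622 to 0.32).

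Of 19 tested genes that induce interferon or limit its induction, 4 rose and 7 fell in synovium relative to arthritic nodes, the share higher being near that of all genes (17.9%) and the share lower above it (15.9%). Tlr7, the endosomal sensor of single-stranded RNA, stood at 110.2, 79.8 and 38.2 in synovium and 460.0, 486 and 318 in arthritic nodes and fell by 2.56 (limma adjusted p = 0.000208). The adaptor Tmem173 (Sting) stood at 2356, 2391 and 2336 in synovium and 4920.4, 4721 and 4197 in arthritic nodes and fell by 0.96 (adjusted p = 1.77e-05). Its upstream DNA sensor Mb21d1 (cGAS) went the other way, at 391, 364 and 273 in synovium and 150.4, 174 and 168 in arthritic nodes, and rose by 1.04 (adjusted p = 0.0103). The exonuclease Trex1, which degrades the DNA that cGAS senses, rose by 1.22 and the adaptor Traf3 by 2.19 (adjusted p = 0.000235 and 0.000178). All 1147 exon bases of Trex1 are shared with Atrip on the same strand, so the value cannot be given to Trex1 alone. The kinase Tbk1 rose by 0.52 (adjusted p = 0.0066), but not under quantile scaling (adjusted p = 0.0706). The kinase Ikbke fell by 1.07 and the nucleotide hydrolase Samhd1 fell by 0.65 (adjusted p = 0.000412 and 0.0034). The other 3 that fell were the RNA editing enzyme Adar (-0.63) and the RNase H2 subunits Rnaseh2a (-0.54) and Rnaseh2c (-0.39). The calls of Rnaseh2a and Rnaseh2c were lost with only synovium and arthritic nodes fitted, with and without the mouse as a block. Without 1 library Rnaseh2a lost its call for synovial 1 or 3, any arthritic node or control node 1, and Rnaseh2c for each of the 9 libraries (adjusted p up to 0.135 and 0.12).

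**Figure D5:**
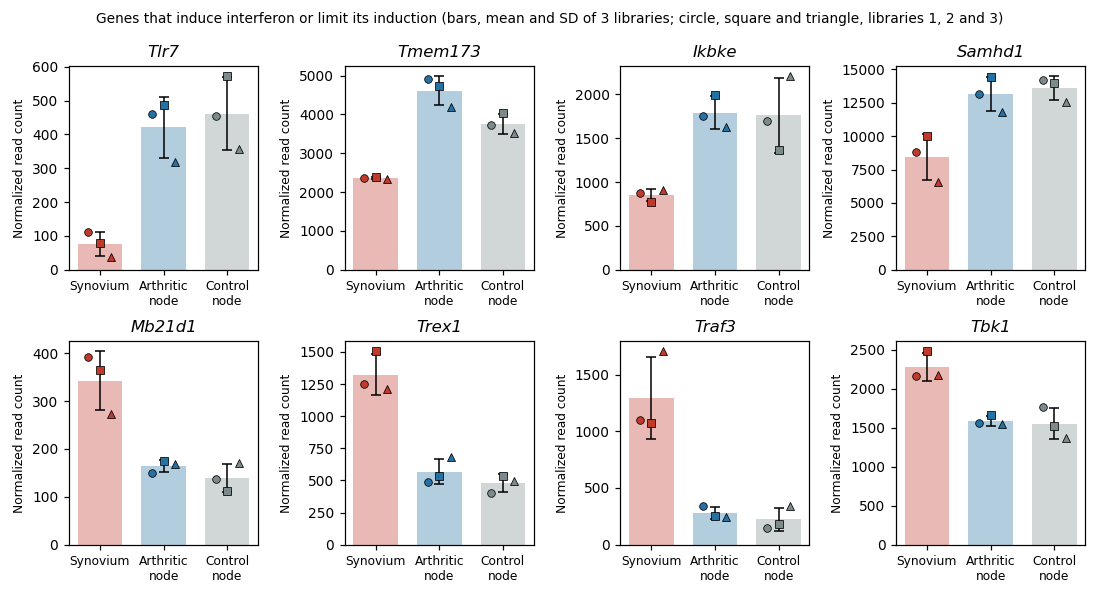
Normalized reads (y axes, starting at 0) of 8 genes that induce interferon or limit its induction, in synovium, arthritic node and control node. Bars are means, error bars the SD of 3 libraries, and circles, squares and triangles libraries 1, 2 and 3. Tlr7, Tmem173, Ikbke and Samhd1 are lower in synovium, and Mb21d1, Trex1, Traf3 and Tbk1 are higher.

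A further list of 54 tested interferon-stimulated genes, none of them a member, was described for comparison. In synovium 29 fell and 4 rose relative to arthritic nodes (median -0.80), and 33 fell and 6 rose relative to control nodes (median -0.95). Both shares of lower genes exceed those of all genes (15.9% and 18.5%). The lowest were Ly6c1 (fell by 3.81), Gm4951 (-3.68), Ms4a4c (-3.55), Slfn1 (-3.28) and Tgtp1 (-3.26), and without synovial library 3 the differences of Gm4951 and Tgtp1 were -2.44 and -2.66. Gm4951 was at -4.49 without synovial library 2. Of the Schlafen genes, which include regulators of T cell quiescence and of translation, Slfn5 (-2.57), Slfn2 (-1.31) and Slfn8 (-1.30) also fell. Of the Trim genes, Trim14 (-1.63), Trim34a (-1.59), Trim12a (-1.38) and Trim12c (-1.35) fell. Ms4a4b (-2.00) and Ms4a6b (-1.97), membrane proteins of T cells, fell as well. Reads can be divided among the close paralogs of these families. The nuclear body genes Daxx (-1.24) and Pml (-1.12), the immunoproteasome subunit Psmb9 (-0.82), the Pyhin gene Pyhin1 (-1.69) and Nlrc5 (-0.50), the activator of class I genes, were lower too. The other genes that fell were Parp11 (-2.06), Phf11c (-2.03), Cnp (-1.46), Mitd1 (-1.31), Oas1b (-1.24), Epsti1 (-0.88), Lgals9 (-0.79), Apol9b (-0.68), Nmi (-0.59) and Shisa5 (-0.44). Oas1b, like Mx2, is labelled a polymorphic pseudogene in GENCODE vM21.

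Among those that rose, Ifitm2, which restricts viral entry, changed most, by 1.72 (limma adjusted p = 0.000389), followed by Helz2 (0.66), Ly6a (0.50) and Tor1aip1 (0.44). The calls of Oas1b (synovial 1 or 3, arthritic node 1 or 2), Nlrc5 (synovial 2, arthritic node 2 or 3), Apol9b (synovial 1, arthritic node 1 or 3), Helz2 (synovial 2 or 3, arthritic node 1 or 3) and Ly6a (synovial 1 or 3, arthritic node 1 or 3, control node 1) were lost without 1 of the libraries given. Under quantile scaling the difference of Ly6a was 0.01, and Helz2 and Tor1aip1 did not pass. Of genes that did not pass relative to arthritic nodes, Mnda (4.07) and Ogfr (0.48) rose relative to control nodes, and Apol9a (-1.60), Ifitm3 (-1.54), Trim26 (-0.68) and Pnpt1 (-0.61) fell. Of these, the calls of Ogfr, Ifitm3, Trim26 and Pnpt1 were lost without at least 1 library, with an adjusted p of up to 0.15, 0.129, 0.0521 and 0.0947. Between arthritic and control nodes 1 of the 54 passed, Ly6a, which rose by 1.05 (adjusted p = 0.0215). It lost the call without synovial library 1 or 3, arthritic node library 2 or 3 or control node library 1 or 3, and also without the trend, with only the 2 node groups fitted and with the block (adjusted p = 0.0513 to 0.32). Arthritic node library 2 was the highest of its group in 32 of the 54 (59.3%) and control node library 3 the lowest in 35 (64.8%).

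In the authors' deposited table, which compares synovium with arthritic nodes, 27 of the 44 members were lower and 1 higher at an adjusted p under 0.05, against 14.1% lower and 17.1% higher of the 13116 genes with an adjusted p there. All 25 members called by limma were among these with the same direction. The 3 others were Ddx58 (log2 fold change -0.70), Cmpk2 (-1.05) and Samd9l (-0.61) in the authors' deposited table.

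Markers of other cells were measured beside these results. Of 12 macrophage and monocyte markers 6 were tested, and Cd14 and Ccr2 were higher in synovium than in arthritic nodes. Lyz2, Cd68, C1qb and Ly6c2 did not pass there. Lyz2 averaged 20.8 in synovium, 168.6 in arthritic and 199.6 in control nodes, and was lower than in control nodes (limma adjusted p = 0.0377). C1qb averaged 1.47 in synovium and 50.9 in arthritic nodes. Cd14, the monocyte co-receptor for lipopolysaccharide, stood at 70.5, 196 and 66.3 in synovium, 0, 0 and 14.9 in nodes of arthritic mice and 0 in all 3 of controls (limma adjusted p = 0.00516 and 0.001). Emr1, Fcgr1 and C1qc were at 0 in all synovial libraries. The macrophage sum without Ccr2, which activated T cells also express, was 103 to 349 normalized reads in synovium, 98.1 to 634 in the arthritic and 90.3 to 400 in the control nodes.

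Of 10 dendritic markers 5 were tested, and Xcr1, Zbtb46 and Cd74 were higher in synovium than in both node groups. The other tested markers, Ly6d and H2-Aa, did not pass against either node group. Ly6d averaged 17.1 in synovium, 54.5 in arthritic and 49.9 in control nodes, and H2-Aa averaged 55.9, 69.7 and 40.8. Cd74, the invariant chain of class II molecules, led the sum at 11868 to 14727 in synovium, 4356 to 5228 in the arthritic and 2987 to 4677 in the control nodes. Without it the sum was 1072 to 1117 in synovium, 152 to 197 in the arthritic and 75.3 to 177 in the control nodes. In synovium most of that remainder was Xcr1 and Zbtb46, with means of 439 and 560. Clec9a was at 0 in all libraries, Itgax in all synovial libraries and Siglech, of plasmacytoid cells, in 2 of 3 synovial libraries.

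Of 10 fibroblast markers 8 were tested, and Sparc was higher and Prg4 lower in synovium than in arthritic nodes. Without Thy1, which T cells express, and Prg4, which made up most of the node sums, the fibroblast sum was 122, 106 and 2501 in synovial libraries 1 to 3, 1.74, 13.5 and 201 in the arthritic and 7.03, 16.2 and 37.4 in the control node libraries. Synovial library 3 was thus far above the rest, and without it 19 members were lower and 1 higher than in arthritic nodes. The count of all genes without that library is not given here. The CD8 T and NK sum (6 markers, led by Nkg7, with Ncr1 at 0 throughout) was 1767 to 2637 in synovium, 769.6 to 1206 in the arthritic and 946 to 1450 in the control nodes, and Nkg7 was higher in synovium than in arthritic nodes (adjusted p = 0.00205). The sum of 5 B cell markers was 202 to 364, 409.9 to 637 and 442 to 497 in the same order of groups. The sum of 6 neutrophil markers was 1.12 to 52.8, 0 to 12.2 and 0 to 1.00, with Csf3r at 0 throughout. The part of other cells in the members' differences was not tested.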

How the data were processed

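Sorted mouse Tregs were sequenced as 9 RNA libraries, grouped by the sample titles. Per the labels' protocols, Trizol was used for extraction and a directional kit for the libraries. The submitters' processing notes name HISAT2, HTSeq, DESeq2 and mm10, whereas, in the sources used here, their versions, the annotation and the strand setting are not given. The values the authors deposited are a normalized signal, reads per gene over 1 scaling constant for each library: 100% of nonzero values were whole multiples of that constant within 0.01. The authors' deposited comparison holds log2 fold changes, a test score, p-values and their adjusted form, as named per the file headers. Its direction was settled by a rerun of DESeq2.

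The main test was limma 3.58.1 (R 4.3.3; lmFit, eBayes with trend) on log2(normalized value + 1) for 11357 genes with a mean of 10 or more. All 9 libraries entered the fit, tests were two-sided, Benjamini-Hochberg adjustment ran over all genes tested, and an adjusted p under 0.05 was called. Fold changes are on this log2 scale: the pseudocount shrinks changes of low genes, whereas 1 very low library can make the difference larger than the ratio of means, as in Oasl1. The 3 libraries per group limit the precision. Each library held 11300406 to 12855435 reads, and a 3-read floor covers counting error only. Alternatives were pseudocounts of 0.5 and 5, no filter or a mean of 50, no trend, library weights, only the compared groups, TMM and quantile scaling, edgeR 4.0.16 and DESeq2 1.42.0 on recovered reads, a block for the mouse number, and leaving out 1 library at a time. The block was fitted with only the compared groups. The scripts were tested on simulated data.

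Titles pair synovial and arthritic node libraries by mouse. Across genes, deviations of a pair from the group means had correlations of 0.02, 0.05 and 0.09, and each library matched its own number best. Arthritic and control node libraries of the same number, from different mice, had 0.0046, 0.0665 and 0.0703, and numbers 2 and 3 also matched best. These correlations therefore do not establish the pairing, which rests on the titles. Values in every library are given for members called in a comparison and for receptor chains and transcription factors, and for other members ranges. Genes of the pathway lists are named where called if the higher group's mean was at least 50, besides Jak1, Tyk2, Irf1 and Ifnb1, and 1 gene of the signalling list is not reported here. The members and lists were chosen with earlier results of these data known. Positions came from GENCODE vM21 (GRCm38), promoter letters from RefSeq (GRCm38.p6). Of 112 genes of the pathway lists with a position, 37 share exon bases with another annotated gene, 9 of them on the same strand.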

Additional observations from a re-analysis of the deposited data

How the results depend on the processing

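Between synovium and arthritic nodes, 24 members were lower (17 to 26 with 1 library left out, 18 to 27 under the other alternatives) and 1 higher (1 in all of them). Against control nodes, 21 were lower (16 to 24 and 16 to 25) and 1 higher (1 to 2 with 1 library left out). These ranges are not set against the counts of all genes in the same fits, so they are not particular to the members. The higher count was 2 with the number as a replicate block and without control node library 1 or 2, Isg15 being the gene added (adjusted p = 0.0252 under the block). The numbers name different mice there, so the block does not pair them, and the 25 members lower under it are given for completeness. Between the node groups 0 members were called under every alternative. Of the calls, 18 of 25 and 16 of 22 were kept under all 21 alternatives, and 0 reversed. With all libraries but no trend, Stat2, Irf9, Irf7, Dhx58, Ifit3 and Phf11b lost the call against arthritic nodes. Against control nodes Irf9, Oasl1, Parp14, Phf11b and Trim30a lost it in the same way. There Oasl1 was also lost with edgeR, and Trim30a with only the compared groups fitted. In the comparison of synovium with arthritic nodes the block lost no member. Of members not called, the sign of the difference changed under at least 1 alternative in 5 of 17, 31 of 42 and 5 of 20 (synovium against arthritic nodes, between nodes, synovium against control nodes), and none of these passed.

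Genes outside the members reversed as follows, and the cause was not tested. Relative to arthritic nodes Jak1 (0.02) became -0.0087 with library weights, -0.024 with TMM, -0.50 with quantile scaling, -0.025 with edgeR, and -0.0236 to 0.0623 with 1 library left out (negative without synovial library 3 or arthritic node library 1). Irf1 (0.05) became -0.17 with quantile scaling and -0.12 to 0.24 with 1 library left out (negative without synovial library 1 or arthritic node library 3). Relative to control nodes Jak1 (-0.01) became -0.0261 to 0.0156 (positive without synovial library 1 or control node library 1), and Tyk2 (0.17) became -0.16 to 0.42 (negative without synovial library 3). Quantile scaling moved the median of all genes to -0.12 and -0.13 in the 2 synovial comparisons. Depth limits members with few reads in a group, such as Oas2, Oasl1, Mx2 and Ifi44 in synovium.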
